A study of Rattus norvegicus with 16 samples.

Results

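The genes described here encode parts of the motile cilium, its axoneme and the factors that switch it on. They were chosen by gene symbol: names that start with Dnah, Dnai, Dnaaf, Cfap, Rsph or Tekt followed by a digit, together with Foxj1, Ccno, Mcidas, Ccdc39, Ccdc40 and Hydin. The rule found 61 of the 22663 genes in the expression table, namely 27 Cfap, 10 Dnah, 7 Rsph, 5 Dnaaf, 5 Tekt and 2 Dnai genes and 5 of the single names. Foxj1 was not analysed here. The rule was written with the FPKM values of these libraries known, including the comparison of the groups and the pattern over single libraries, so both are given below as a description.

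A motile cilium is built on a ring of doublet microtubules around a central pair. Dynein arms on the doublets produce the bending force, radial spokes and the central apparatus regulate it, and tektins and other inner proteins line the doublets. In the female tract multiciliated cells are known from the epithelium of the oviduct, which lies against the ovary, whereas most ovarian cells carry at most a single primary cilium. Dynein arms are preassembled in the cytoplasm with the help of dedicated assembly factors.

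Ovaries came from 8 rats, 4 labelled CON and 4 labelled VCD (4-vinylcyclohexene diepoxide, an epoxide known to destroy small ovarian follicles). The sources used here state no dose, age, strain or control treatment. Each rat gave an input library of fragmented poly(A) RNA and a library of fragments pulled down for N6-methyladenosine, abbreviated m6A, a methylated base found in mRNA. The series text mentions mice, but both the organism label and the gene identifiers are those of rat. Levels are FPKM, fragments per kilobase of transcript scaled to the mapped fragments of the library. FPKM values hold no read totals, so the depth is unknown and no counting error can be given. Total FPKM lay between 403809 and 414332 in CON and between 406479 and 421628 in VCD. Genes with at least 1 FPKM numbered 13618 to 13835 in CON libraries and 13220 to 13574 in VCD, so fewer in every VCD library. Genes typed as ribosomal RNA summed to 13.5 to 31.9 FPKM in CON libraries and 32.3 to 61.2 FPKM in VCD. Titles number the rats, so libraries were taken as separate animals. In whole ovaries, fewer cells of a type and less RNA per cell cannot be told apart.

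Promoters of 51 of the 61 genes were found in the RefSeq table for build GRCr8, as windows from 250 bases before the start site to 50 after it. RFX factors, which together with forkhead factors drive many ciliary genes, are known to bind X-box elements. The X-box core GTTGCC, or GGCAAC on the other strand, stood in a window of 19 of the 51 genes (37.3%) and of 13.1% of the 12859 genes matched. The forkhead core TGTTTAC, or GTAAACA on the other strand, stood in 3 of 51 (5.88%) and in 2.73% of all. These spellings were kept after several others had been counted, the motifs do not overlap each other, and a match is only a match of letters. Genes with more than 1 listed start site had more than 1 window, and by window the X-box core stood in 28.9% of 76 and in 12.4% of 14484. The 3 windows shown belong to the gene with the clearest group difference, to a tektin with its highest level in CON 2, and to an assembly factor without that peak. All 3 hold the X-box core, in capitals, and run 5′ to 3′ on the strand of the gene. They lie at chr2:46363824-46364123 on the plus strand for Ccno, chr5:143907675-143907974 on the minus strand for Tekt2 and chr6:93406274-93406573 on the minus strand for Dnaaf2 (GRCr8).
Ccno: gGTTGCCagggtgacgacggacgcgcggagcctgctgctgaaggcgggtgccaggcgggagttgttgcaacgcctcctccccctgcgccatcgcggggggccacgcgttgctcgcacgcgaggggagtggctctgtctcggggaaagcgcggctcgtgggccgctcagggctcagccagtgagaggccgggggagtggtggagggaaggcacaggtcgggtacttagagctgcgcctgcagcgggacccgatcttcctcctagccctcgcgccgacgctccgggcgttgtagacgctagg
Tekt2: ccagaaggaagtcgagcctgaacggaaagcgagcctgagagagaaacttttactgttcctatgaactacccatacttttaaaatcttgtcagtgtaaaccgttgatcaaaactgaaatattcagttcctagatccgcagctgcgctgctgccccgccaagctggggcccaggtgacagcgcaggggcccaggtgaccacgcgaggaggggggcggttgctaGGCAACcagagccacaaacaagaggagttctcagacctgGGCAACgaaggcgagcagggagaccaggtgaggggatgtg
Dnaaf2: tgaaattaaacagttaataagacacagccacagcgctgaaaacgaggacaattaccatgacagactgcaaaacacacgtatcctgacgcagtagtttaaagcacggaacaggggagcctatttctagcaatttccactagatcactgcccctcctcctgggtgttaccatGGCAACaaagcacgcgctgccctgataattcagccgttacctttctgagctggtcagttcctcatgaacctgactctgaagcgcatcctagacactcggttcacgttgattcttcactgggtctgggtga
The X-box core starts 249 bases before the start site in Ccno and 80 before it in Dnaaf2. Tekt2 holds 2 copies, the first 29 bases before the start site. Of the 19 genes with the X-box core 14 had their highest control level in library CON 2, as had 25 of the 32 matched genes without it.

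Most members were expressed at low levels in the ovary, and a few carried most of the summed signal. Only 33 of the 61 averaged at least 1 FPKM in CON and 17 in VCD. The 7 members whose mean over 8 libraries was 5 FPKM or more made up 70.1% of the summed mean. They are Cfap36, Cfap298, Cfap20, Cfap410, Dnaaf1, Dnaaf5 and Cfap300, and together they reached 113 ± 8.93 FPKM in CON against 105 ± 4.48 FPKM in VCD (± SD, 4 libraries per group). The other 54 members summed to 63.6, 114, 49.3 and 30.8 FPKM in CON 1 to CON 4 and to 36.5, 27.6, 23.9 and 25.9 FPKM in VCD 1 to VCD 4. CON 2 stood far above every other library, CON 1 and CON 3 above all VCD libraries, and CON 4 below VCD 1. This split at 5 FPKM was chosen after the values were seen.

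**Figure D1:**
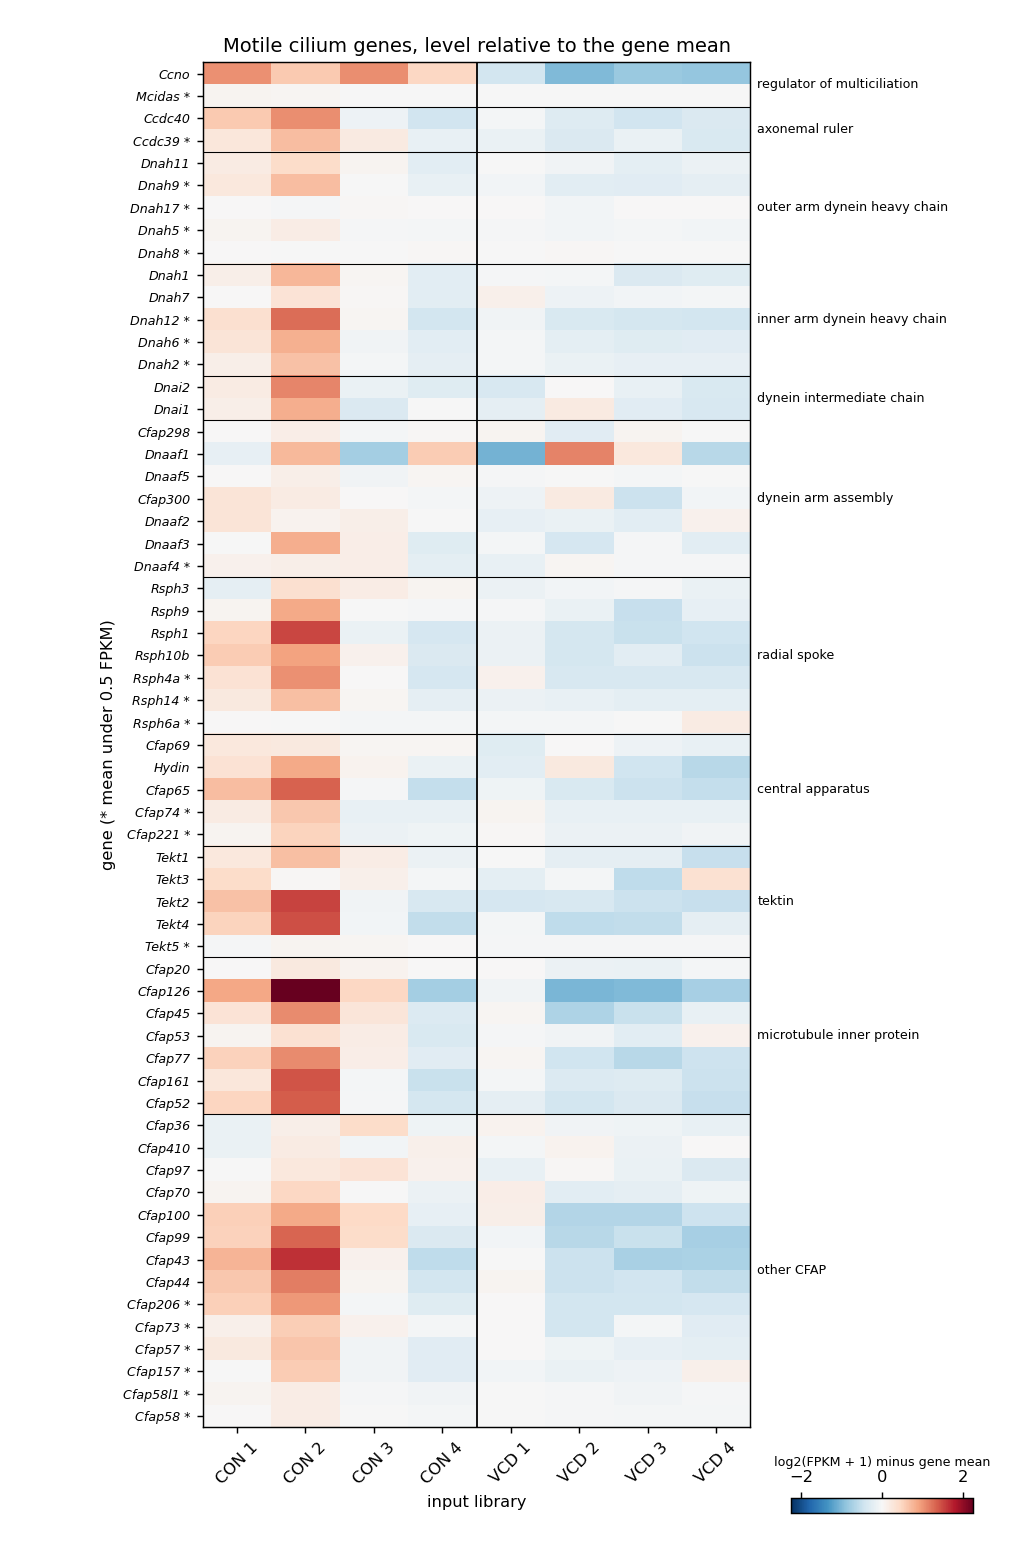
Level of the 61 members (rows, grouped by role) in the 8 input libraries (columns), as log2(FPKM + 1) minus the mean of the gene over all libraries; a star marks a mean under 0.5 FPKM. Red cells gather in CON 2 for 49 of the 61 genes that have their highest control value there, while Ccno is high in all 4 CON libraries.

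Members with a mean of at least 0.5 FPKM were compared between the groups in a fit over all such genes (limma on log2(FPKM + 1), 14978 genes). The filter kept 39 of the 61. Just inside it lay Dnaaf3 at 0.504 and Dnah7 at 0.566 FPKM, and just outside Dnah12 at 0.467 and Dnaaf4 at 0.459 FPKM. Of the 39 tested, 1 passed an adjusted p under 0.05, lower in VCD, where 0.447% of all tested genes passed in either direction and 0.34% passed as lower. At an unadjusted p under 0.05 there were 13 of the 39 members, all lower, where 18.7% of all tested genes passed in either direction and 14.6% as lower (2801 and 2184 of 14978). The median log2 change over the 39 was -0.44, against -0.063 over all tested genes. Without the filter the median was -0.31 over the 61 members, against -0.034 over all genes with a value. A lower mean in VCD was seen in 60 of the 61 members, against 62.1% of all genes with a value, the exception being Rsph6a, a spoke head protein known from sperm. All 4 VCD values lay below all 4 CON values in 4 of the 61 members, and in 7.57% of all genes with a value.

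Ccno was the member that passed. It encodes a cyclin-like protein needed for the amplification of centrioles in multiciliated cells, and in mouse it is also known from oocytes. Ccno (ENSRNOG00000010454) measured 3.89, 2.57, 3.95 and 2.30 FPKM in CON 1 to CON 4 and 0.788, 0.196, 0.336 and 0.299 FPKM in VCD 1 to VCD 4. The groups did not overlap, and CON 1 and CON 3 were the highest libraries. Its log2 change was -1.57 ± 0.18 (SE, n = 4 each; limma adjusted p = 0.0126), and leaving out CON 1 or VCD 4 ended the call (limma adjusted p = 0.0573 and 0.0619). Without both CON 1 and CON 2 the log2 change was -1.54 with an adjusted p of 0.173, and over all alternatives the adjusted p lay between 0.0102 and 0.196.

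The controls with high Ccno were compared with those of the oocyte genes. The 23 listed, among them Zp3 and Gdf9, summed to 65.1, 54.4, 77.1 and 49.7 FPKM in CON 1 to CON 4 and to 17.0, 13.2, 14.1 and 11.7 FPKM in VCD 1 to VCD 4. All 14 oocyte genes tested had a lower mean in VCD, 10 of them with a limma adjusted p under 0.05, and the median log2 change was -1.21. In both Ccno and the oocyte sum the controls ranked CON 3, CON 1, CON 2 and CON 4. By summed FPKM, which abundant genes dominate, this ranking was not particular to oocyte genes. The 16 other regulators of multiciliation listed below summed to 83.4, 82.2, 77.8 and 68.2 FPKM in that order of controls. The 20 surface epithelium genes summed to 191, 163, 149 and 106 FPKM. By the mean of log2(FPKM + 1) over genes, both lists instead ranked the controls CON 2, CON 1, CON 3, CON 4. The regulators then had 1.80, 1.67, 1.63 and 1.40, and the surface epithelium genes 2.19, 2.14, 1.87 and 1.64. On that scale the oocyte list kept its ranking, at 1.64, 1.56, 1.37 and 1.32 in CON 3, CON 1, CON 2 and CON 4. In 0 of the 23 oocyte genes did the controls follow the order CON 2, CON 1, CON 3, CON 4 that 36 of the 61 members showed. That order held in 4.63% of all genes with a value. The part of oocytes in the fall of Ccno was not tested.

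Mcidas encodes multicilin, a coregulator of the multiciliation program, and is the next gene on chromosome 2, 2936 bases downstream of Ccno on the same strand in the coordinates of the files. No source used here names the build of these coordinates. It measured 0.0493 and 0.0361 FPKM in CON 1 and CON 2 and was listed at 0 in CON 3, CON 4 and all VCD libraries. Mcidas was thus near 0 throughout, whereas its neighbour Ccno had a value in every library. Of 16 other regulators of multiciliation listed for comparison, 10 were tested and 0 passed in the limma fit, with 5 of the 10 at an unadjusted p under 0.05, all lower, against 14.6% of all tested genes, and a median log2 change of -0.28. The most abundant were cell cycle factors with roles outside cilia. E2f4, a partner of multicilin, measured 23.9 ± 3.24 in CON against 21.2 ± 1.48 FPKM in VCD, and its dimer partner Tfdp1 24.7 ± 1.52 and 20.5 ± 2.24 FPKM (± SD, 4 libraries per group; adjusted p by limma 0.443 and 0.165).

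**Figure D2:**
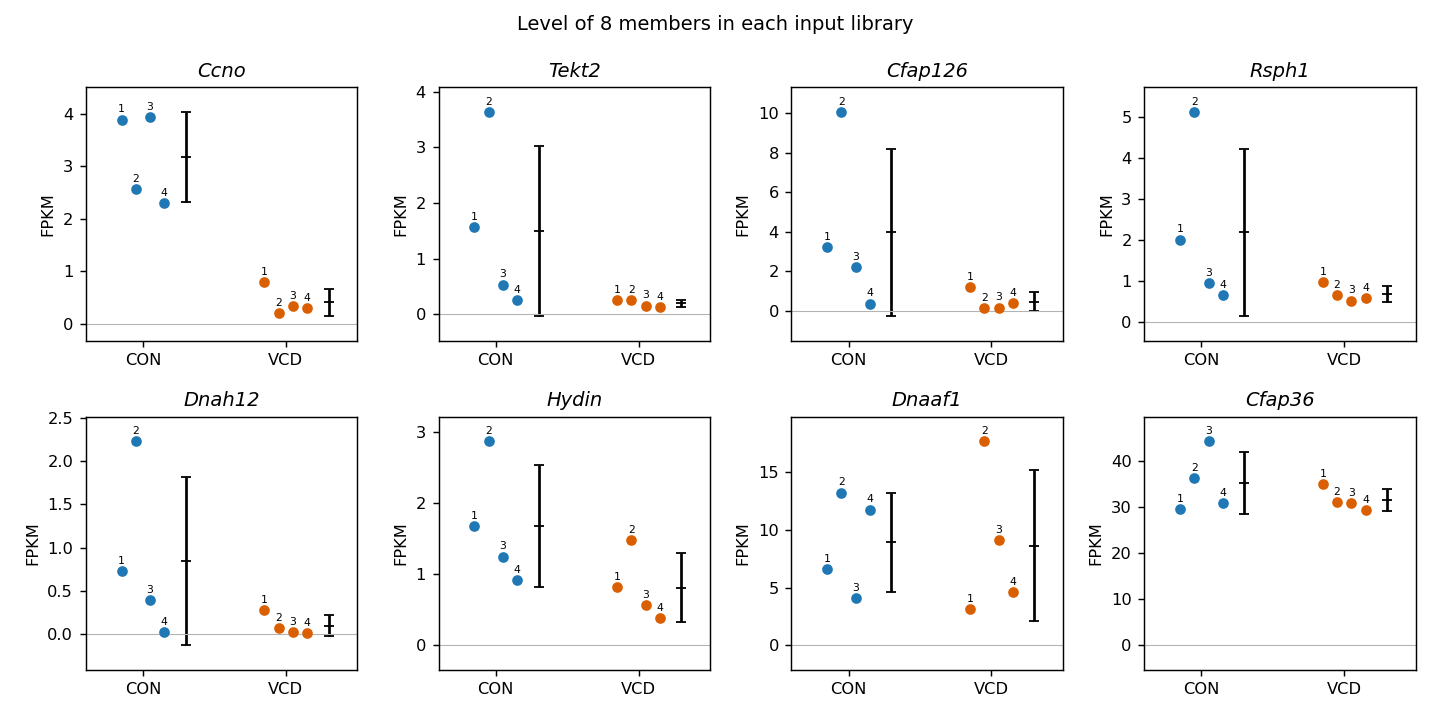
FPKM of 8 members in each input library; points carry the library number, and the black bars give the mean ± SD of the 4 libraries of a group. Ccno is higher in all 4 CON than in all 4 VCD libraries, Tekt2, Cfap126, Rsph1 and Dnah12 peak in CON 2, Dnaaf1 peaks in VCD 2, and Cfap36 varies little.

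The ruler proteins Ccdc39 and Ccdc40 set the repeat along the axoneme at which arms and spokes attach. Ccdc40 measured 1.21, 2.07, 0.366 and 0.101 FPKM in CON 1 to CON 4 and 0.429, 0.210, 0.0982 and 0.185 FPKM in VCD 1 to VCD 4. CON 2 was highest, and CON 4 lay among the lowest VCD libraries, so the groups overlapped. Ccdc39, which did not reach the filter, measured 0.665, 1.27, 0.603 and 0.246 FPKM in CON libraries and 0.268, 0.122, 0.262 and 0.102 FPKM in VCD, with the same control order.

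Dynein heavy chains carry the motor activity of the arms. The 10 Dnah genes averaged 0.0098 to 0.683 FPKM over the 8 libraries, and 3 of them reached the filter, Dnah1, Dnah7 and Dnah11. Dnah12, an inner arm chain, measured 0.727, 2.24, 0.386 and 0.0152 FPKM in CON libraries and 0.273, 0.0636, 0.0225 and 0.0111 FPKM in VCD. Dnah12 was by far highest in CON 2, and CON 4 lay among the VCD libraries. Dnah1, also of the inner arms, measured 0.903 ± 0.587 in CON against 0.463 ± 0.150 FPKM in VCD (± SD, 4 libraries per group). Dnah11, an outer arm chain, measured 0.750 ± 0.324 and 0.489 ± 0.0859 FPKM. Their limma adjusted p values were 0.395 and 0.464. Dnah8 and Dnah17, outer arm chains known from sperm, did not have their highest control value in CON 2. The other 8 heavy chains did.

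The intermediate chains Dnai1 and Dnai2 anchor the outer arms. Dnai2 measured 1.12, 2.98, 0.681 and 0.549 FPKM in CON libraries and 0.452, 0.871, 0.650 and 0.465 FPKM in VCD. Dnai1 measured 0.788, 1.87, 0.299 and 0.629 FPKM in CON libraries and 0.420, 0.883, 0.375 and 0.274 FPKM in VCD. In both genes CON 2 was far above any other library, and the remaining libraries of the groups overlapped.

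The assembly factors of the dynein arms held 4 of the 7 most abundant members. Cfap298 measured 30.0 ± 1.76 in CON against 28.7 ± 3.00 FPKM in VCD, and Dnaaf5 6.62 ± 0.461 and 6.39 ± 0.0654 FPKM (± SD, 4 libraries per group; adjusted p by limma 0.725 and 0.790). Scaling to a common median turned the direction of both, to log2 changes of 0.0306 and 0.0430. Dnaaf1, a leucine-rich repeat protein of arm assembly, had a wide spread in both groups, at 6.64, 13.2, 4.08 and 11.8 FPKM in CON libraries and 3.12, 17.7, 9.14 and 4.61 FPKM in VCD. VCD 2 was its highest library and VCD 1 its lowest, and it was the single member in which VCD 2 stood at least 1 above the mean of the other 3 VCD libraries on the log2 scale. Dnaaf3, in contrast, measured 1.57 FPKM in CON 2 and 0.204 to 0.605 FPKM in the other controls, and 0.121 to 0.438 FPKM in VCD.

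Radial spokes connect the doublets with the central pair. Rsph1, of the spoke head, measured 2.01, 5.13, 0.957 and 0.662 FPKM in CON libraries and 0.978, 0.651, 0.524 and 0.593 FPKM in VCD. Rsph9, of the same head, measured 1.80, 3.85, 1.67 and 1.65 FPKM in CON libraries and 1.64, 1.42, 0.868 and 1.37 FPKM in VCD. Rsph9 was among the 4 members whose groups did not overlap, with a log2 change of -0.44 (limma adjusted p = 0.295), or -0.23 without CON 2. Rsph3, of the spoke stalk, measured 3.27 ± 0.676 in CON against 2.71 ± 0.150 FPKM in VCD (± SD, 4 libraries per group; adjusted p by limma 0.432).

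Hydin, a very large protein of the central apparatus, measured 1.67, 2.87, 1.24 and 0.919 FPKM in CON libraries and 0.815, 1.48, 0.567 and 0.380 FPKM in VCD. CON 2 was the highest library and VCD 2 lay above CON 3 and CON 4. Cfap65 of the same structure ran from 2.64 FPKM in CON 2 to 0 in CON 4, where it was listed at 0, and had 0.353 FPKM or less in VCD. Cfap69, also of the central apparatus, did not overlap between the groups, at 1.51 to 1.89 FPKM in CON libraries and 1.02 to 1.44 FPKM in VCD (log2 change -0.27, limma adjusted p = 0.219).

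Tektins form filaments along the doublets. Tekt2 measured 1.57, 3.64, 0.536 and 0.263 FPKM in CON libraries and 0.252, 0.261, 0.157 and 0.135 FPKM in VCD. The groups of Tekt2 did not overlap, yet CON 4 exceeded VCD 2 by less than the spread of either group. Tekt4 measured 1.15, 3.14, 0.457 and 0.0317 FPKM in CON libraries and 0.465, 0.0213, 0.0351 and 0.320 FPKM in VCD. Tekt1, the most abundant tektin, measured 3.92 ± 1.17 in CON against 2.49 ± 0.500 FPKM in VCD, and Tekt3 1.41 ± 0.354 and 1.07 ± 0.555 FPKM (± SD, 4 libraries per group; adjusted p by limma 0.195 and 0.528). Tekt3 was highest in CON 1 and next in VCD 4.

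Microtubule inner proteins sit inside the doublets. The 7 members placed in this role, with the tektins kept apart, all had CON 2 as the highest control. Of the 5 tektins, 4 did. Cfap126, also called Flattop, measured 3.23, 10.1, 2.19 and 0.359 FPKM in CON libraries and 1.18, 0.133, 0.155 and 0.368 FPKM in VCD. CON 2 was far above the next library, and CON 4 was no higher than VCD 4. Its log2 change of -1.43 ± 0.54 (SE, n = 4 each) did not pass (limma adjusted p = 0.207) and was -0.91 without CON 2. Cfap20, a conserved inner junction protein with roles outside motile cilia, measured 17.4 ± 1.32 in CON against 15.5 ± 0.904 FPKM in VCD (± SD, 4 libraries per group; adjusted p by limma 0.317).

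Among the remaining Cfap genes, Cfap43 measured 1.93, 4.39, 0.849 and 0.156 FPKM in CON libraries and 0.715, 0.233, 0.0385 and 0.0578 FPKM in VCD. Cfap99 measured 1.63, 3.55, 1.44 and 0.471 FPKM in CON libraries and 0.746, 0.186, 0.301 and 0.0980 FPKM in VCD. Cfap100 measured 2.22, 2.97, 2.01 and 0.943 FPKM in CON libraries and 1.41, 0.404, 0.400 and 0.589 FPKM in VCD. All 3 ranked the controls CON 2, CON 1, CON 3, CON 4 and placed CON 4 below VCD 1, with limma adjusted p values of 0.254, 0.151 and 0.135. Cfap36, the most abundant member, measured 29.7, 36.4, 44.4 and 30.9 FPKM in CON libraries and 35.0, 31.2, 30.9 and 29.3 FPKM in VCD, so its groups overlapped.

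Counted over all members, CON 2 was the highest control in 49 of 61, and in 32 of the 39 tested (82.1%), against 20.2% of all tested genes. The full order CON 2, CON 1, CON 3, CON 4 held in 36 of 61, and in 4.63% of all genes with a value. CON 2 stood at least 1 above the mean of the other 3 controls on the log2(FPKM + 1) scale in 14 of 61 members, and CON 1, CON 3 and CON 4 each in 0. Of all tested genes 125 (0.835%) had such an excess in CON 2, and 12 of these were members. The level in CON 2 was a median of 2.11 times the median of the other controls over the 39 tested members, and 0.98 times over all tested genes. CON 4, at the other end, did not exceed the highest VCD library in 52 of 61 members, against 78.2% of all genes with a value. Among VCD libraries VCD 1 was the highest in 41 of 61 members, against 33.9% of all genes with a value. This order was noticed in the values before it was counted.

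The group difference was recomputed without the libraries concerned. In every such fit the filter stayed on the mean of all 8 libraries. CON 1 and CON 2 therefore still took part in choosing the 39 members. Leaving out CON 2 took the median log2 change of the 39 tested members from -0.44 to -0.26, with 36 of 39 lower in value. The median of all tested genes was then -0.066, with 63.2% lower in value. Without CON 2, limma gave 4 of the 39 members and 2534 of the 14978 genes an unadjusted p under 0.05. Leaving out CON 1 and CON 2 together gave a median of -0.16 with 35 of 39 lower in value, against 62.8% of all tested genes. Leaving out any other single library gave medians from -0.52 to -0.39. Over the 61 members, a lower mean in VCD was seen in 56 without CON 2 and in 50 without CON 1 and CON 2. Without CON 1 and CON 2 limma called 0 of the 39 members and 0 of all genes, with 2 members and 1510 genes at an unadjusted p under 0.05.

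**Figure D3:**
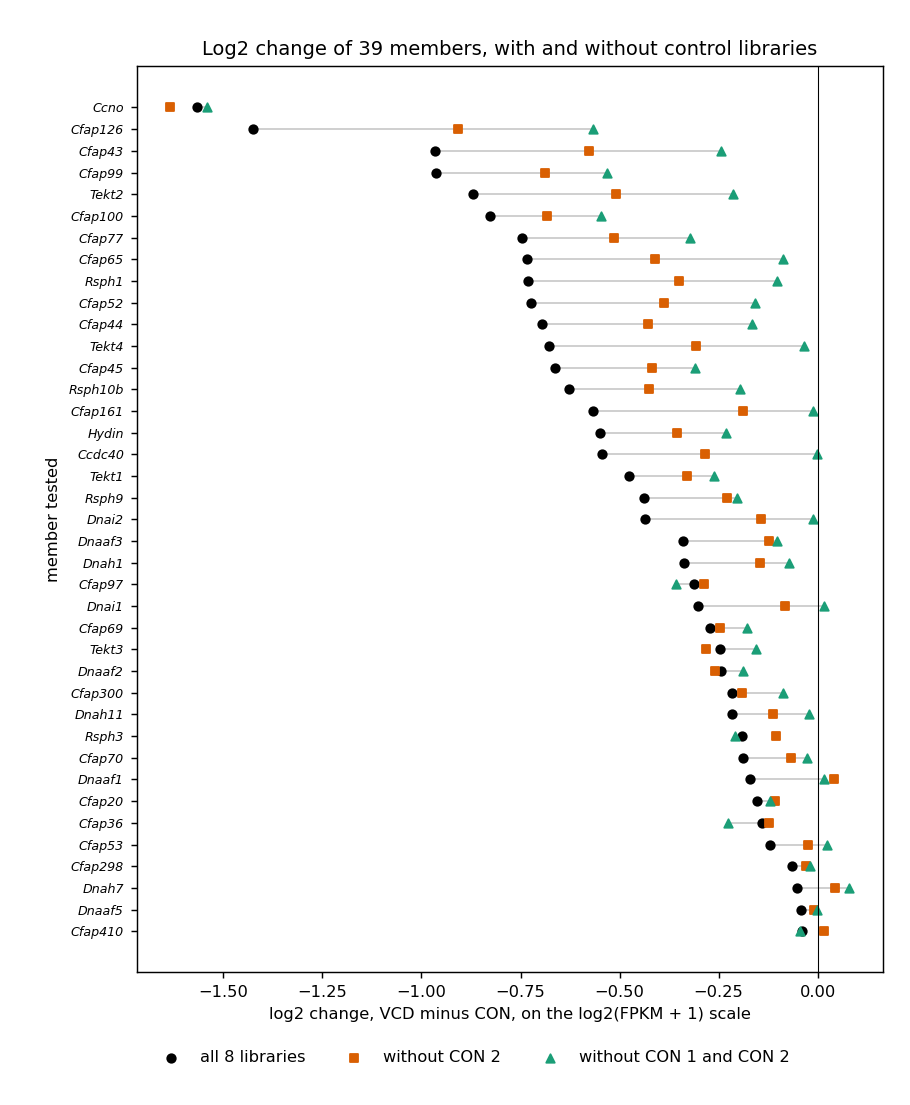
Log2 change (VCD minus CON, on the log2(FPKM + 1) scale) of the 39 members tested, with all 8 libraries (circles), without CON 2 (squares) and without CON 1 and CON 2 (triangles). The median moved from -0.44 to -0.26 and -0.16, and Ccno stayed between -1.63 and -1.54. The 39 were chosen on the mean of all 8 libraries in each case.

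Motile cilium genes outside the symbol rule were examined next. Of 56 genes listed for comparison 47 were in the table, and they summed to 93.0, 183, 69.9 and 47.5 FPKM in CON 1 to CON 4 and to 66.8, 55.6, 42.3 and 49.8 FPKM in VCD 1 to VCD 4. CON 2 was the highest control in 44 of the 47, and the order CON 2, CON 1, CON 3, CON 4 held in 32. None of the 28 tested passed in the limma fit, with 6 of the 28 at an unadjusted p under 0.05, all lower, against 14.6% of all tested genes, and their median log2 change was -0.49, or -0.26 without CON 2. Tppp3, a tubulin-binding protein of multiciliated cells, was the most abundant at 17.7, 46.5, 9.20 and 2.68 FPKM in CON libraries and 8.52, 3.14, 3.09 and 4.50 FPKM in VCD. Spa17 measured 17.5 FPKM in CON 2 and 8.33 to 12.5 FPKM in the other libraries.

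For genes of the primary cilium and of transport along cilia, CON 2 was the highest control in 14 of 37, and that order held in 4. Their sum lay between 323 and 349 FPKM in CON and between 302 and 331 FPKM in VCD. None of the 37 passed in the limma fit, 15 had an unadjusted p under 0.05, 14 of them lower, against 18.7% of all tested genes in either direction and 14.6% as lower, and the median log2 change was -0.14. Ift20, a transport particle subunit, measured 31.3 ± 2.04 in CON against 27.5 ± 0.809 FPKM in VCD (limma adjusted p = 0.216).

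**Figure D4:**
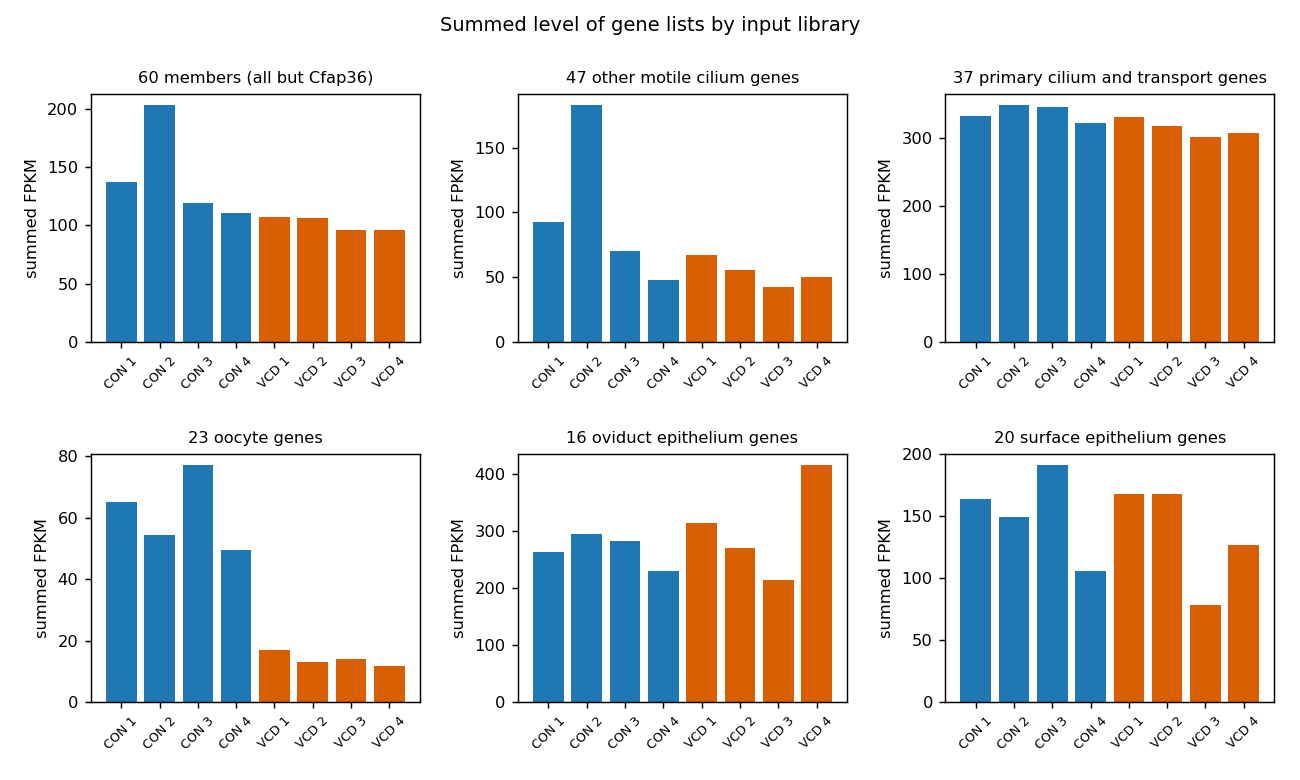
Summed FPKM of 6 gene lists in each input library (blue CON, orange VCD; each panel has its own axis, from 0). CON 2 is the highest library for the 60 members without Cfap36 and for the 47 other motile cilium genes, at 183 FPKM for the latter. It is also the highest for the primary cilium list, at 349 FPKM against 347 FPKM in CON 3. The oocyte, oviduct and surface epithelium lists are highest in other libraries, the oviduct list in VCD 4 at 415 FPKM.

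Markers of 2 epithelia that could accompany an ovary were set beside these values. Of 16 oviduct epithelium genes in the table, 10 had their highest control value in CON 2, and the list summed to 229 to 295 FPKM in CON libraries and 215 to 415 FPKM in VCD. Clu, a secreted chaperone, made up most of that sum and was highest in VCD 4. Lcn2 measured 22.7, 45, 20.5 and 13.2 FPKM in CON libraries and 14.9 to 25.2 FPKM in VCD. Epcam, an adhesion protein of epithelia, and Cldn3, a tight junction protein, both chosen after their values were seen, were highest in CON 2 as well. Epcam measured 2.82, 6.31, 1.94 and 1.5 FPKM in CON, and Cldn3 1.54, 5.14, 0.690 and 0.137 FPKM. In VCD Epcam had 0.560 to 3.22 and Cldn3 0.280 to 1.30 FPKM. Cdh1, an adhesion protein of epithelia and more abundant, measured 7.50, 7.45, 6.20 and 3.80 FPKM in CON and 23.8, 5.70, 4.98 and 12 FPKM in VCD, highest in VCD 1. Sox17, a transcription factor of the same list and also chosen after its values were seen, measured 4.76 to 6.27 FPKM in CON libraries and 7.32 to 8.19 FPKM in VCD, so every VCD library lay above every control. Ltf, a secreted protein of the same list, was listed at 0 in 4 libraries and did not exceed 0.0401 FPKM. Ovgp1, Muc16, Sprr2f and Hoxa9 were not analysed here.

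Of 20 genes of the ovarian surface epithelium, 8 had their highest control value in CON 2, and the list summed to 106 to 191 FPKM in CON libraries and 78.3 to 167 FPKM in VCD. Krt19, a keratin of simple epithelia, measured 12.5, 18, 7.40 and 3.95 FPKM in CON libraries and 6.27 to 11.2 FPKM in VCD. Krt18, chosen after its values were seen, measured 3.01, 8.14, 1.60 and 0.617 FPKM in CON libraries and 0.307 to 1.27 FPKM in VCD. The most abundant marker, Aldh1a1, was highest in CON 3, and Lrrn4 was highest among controls in CON 1. Lypd2 was listed at 0 in every library but CON 1. Of the 125 tested genes with an excess in CON 2, 12 were members, 12 other motile cilium genes, 4 oviduct genes, 2 surface epithelium genes, 1 a regulator of multiciliation and 94 in none of these lists. The part of either epithelium in the levels of the members was not tested.

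The authors' deposited table gave 8 of the 61 members a q-value under 0.05, all lower in VCD, where 2.83% of all genes had such a q and were lower. These were Ccno, Tekt2, Cfap99, Ccdc39, Rsph14, Rsph10b, Cfap100 and Cfap77. The authors' deposited table gave Ccno a log2 fold change of -2.97 and a q of 1.02e-10, Tekt2 a change of -2.90 and a q of 0.00362, and Cfap126 a change of -3.11 and a q of 0.0615. Of the 8, Ccdc39 and Rsph14 were below the filter of the limma fit, and Ccno was the 1 of the other 6 that passed it. The 7 other than Ccno had CON 2 as the highest control.

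Peaks of m6A were called by the authors with 1 list per group, so peak presence has no replicate error. In the CON list 84 peaks lay in 46 of the 61 members, and in the VCD list 46 peaks in 31. All 31 were among the 46, so 15 members had a peak in the CON list alone, 0 in the VCD list alone and 15 in neither. Over all 22663 genes, 758 (3.34%) had a peak in the CON list alone and 450 (1.99%) in the VCD list alone. Of the 39 tested members, 8 had a peak in the CON list alone and 0 in the VCD list alone, against 2.8% and 2.12% of all tested genes. Among tested genes, 34 of 39 members had a CON peak and 26 of 39 a VCD peak, against 79.3% and 78.6% of all tested genes. The 15 members with a CON peak alone had a median level of 0.841 FPKM in CON libraries and 0.146 FPKM in VCD, and the 31 with both 1.77 and 0.687 FPKM. The part of the input level in this difference between the lists was not tested.

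**Figure D5:**
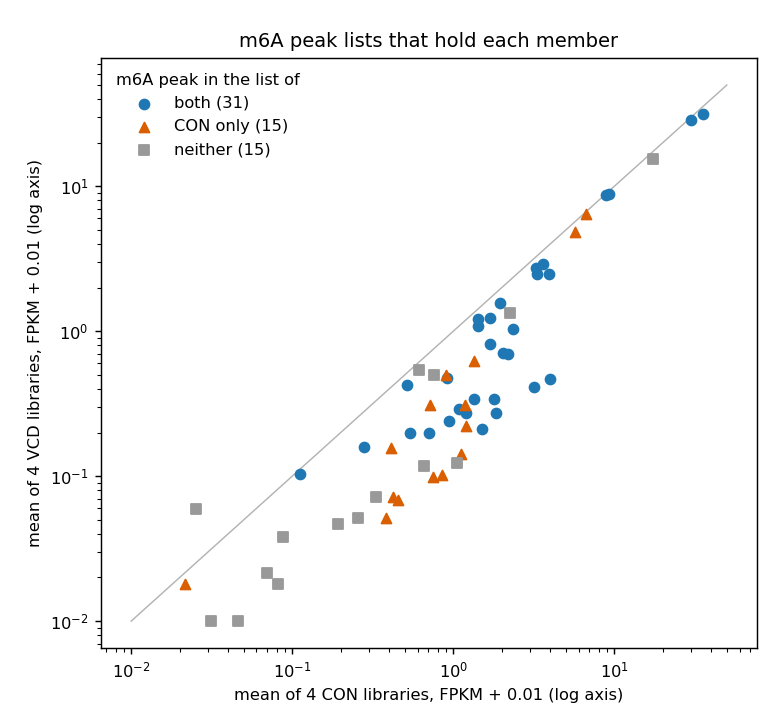
Mean FPKM of the 61 members in CON (horizontal) and VCD (vertical), on log axes after adding 0.01, by the m6A peak lists that hold the gene; the line marks equal levels. Members with a peak in the CON list alone have a median of 0.841 FPKM in CON libraries and 0.146 FPKM in VCD.

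The annotation of the member peaks was set beside that of all peaks, without a test. In the CON list 47.6% of the 84 peaks were annotated as exonic, 32.1% at a stop codon, 11.9% at a start codon and 7.14% in a 3′ untranslated region, against 27.3%, 32.4%, 13.8% and 20.3% of 22316 peaks of all genes. In the VCD list the shares were 50.0%, 34.8%, 8.70% and 6.52% of 46 peaks. Several peaks spanned introns, since the files give the genomic span. They included start and stop codon peaks, such as 1 of 69616 bases in Cfap77 in the CON list. The overlaps below were counted on these spans, so peaks could share intron bases alone. The median log2 enrichment of IP over input was 2.11 in CON and 2.35 in VCD for the members, and 2.31 and 2.40 for all peaks. Counting a strand-matched overlap of 1 base or more, 39 of the 84 CON peaks and 44 of the 46 VCD peaks had a partner in the other list, and 30 of each had one when 50% of each peak had to overlap.

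Ccno carried 1 peak at its stop codon in each list, with a log2 enrichment of 2.84 in CON and 2.87 in VCD, while its input level differed as given above. Cfap36 had 3 peaks in both lists, the highest at the stop codon at 2.59 and 2.67. Dnah8 had an exonic peak in CON with an input level of 0.0116 FPKM. Rsph9 and Cfap20 had none in either list, with input levels of 2.24 and 17.4 FPKM in CON.

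The authors' deposited table of differential m6A listed 12 peaks in 10 members, 6 lower and 6 higher in VCD, whereas 4582 of its 5533 peaks were higher. It marked 4 of the 12 as significant, in 3 members, against 7.79% of all peaks listed. In Ccdc40 the authors' deposited table marked 2 exonic peaks as lower in VCD. The first, at chr10:108350769-108356026, had a log2 change in enrichment of -3.72 (adjusted p = 0.0173 in the authors' deposited table). The second, at chr10:108346496-108350644, had a change of -1.88 (adjusted p = 0.0291 in the authors' deposited table). Both lay within 1 peak of the CON list that spanned 31326 bases. Input levels of Ccdc40 in VCD lay between 0.0982 and 0.429 FPKM. The peaks of Dnaaf3 and Tekt4 at the stop codon, with changes of -1.10 and 1.32, had adjusted p values of 0.0823 and 0.193 in the authors' deposited table. Among unmarked peaks, the authors' deposited table gave Cfap99 a change of 0.70 with an adjusted p of 0.0372.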

How the data were processed

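Members and gene lists were chosen with earlier results of these data known. The deposited gene table holds FPKM values per input library and, per the file headers, the authors' fold ratio of groups, its log2 value, a p-value and a q-value. The deposited peak tables hold, per the file headers, log2 enrichments with p-values, raw and adjusted. No source used here says how replicates entered them. Listed in the submitters' processing notes are GRCh38, a human build, and, with no role, HOMER 4.10, edgeR 4.1, StringTie 2.1.2, HISAT2 2.0.4 and fastp 0.19.4. Gene coordinates keep the 1-based form of the files. Peak coordinates are also printed as listed, where starts at a gene edge lie 1 base before the gene start, as for Cfap36 (113618963 against 113618964). Starts were moved 1 base lower before overlaps of peaks were counted.

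The 14978 genes whose mean over 8 input libraries reached 0.5 FPKM were fitted by limma 3.58.1 in R 4.3.3, on log2(FPKM + 1), using eBayes with a trend and treatment as the only term, with Benjamini-Hochberg adjustment over all of them. Changes are on that scale and understate those of low genes. Peaks were compared with bedtools 2.31.1 and tables made with Python 3.11.15.

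A label named batch gives both groups the numbers 1 to 4, and no source used here explains it. Between libraries of equal number, deviations from the group mean had correlations of -0.01, -0.09, 0.01 and -0.07, so the number served only in an alternative.

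Genes named were Ccno, Mcidas, Ccdc39, Ccdc40, Hydin, the 2 most abundant of each family, members called, the 6 tested members with the lowest log2 change, members with a marked differential peak, and up to 4 abundant genes of each other list. Rsph1, Rsph6a, Dnah8, Dnah12, Dnah17, Cfap20, Cfap65, Cfap69, Dnaaf2 and others named as such were added after their values were seen, as were the roles that group members and the genes plotted singly. Of the other lists, granulosa, theca, stroma, endothelial, smooth muscle, immune and adipocyte markers had CON 2 as the highest control in 2 of 12, 0 of 6, 0 of 7, 0 of 5, 0 of 5, 0 of 5 and 2 of 5 genes.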

Additional observations from a re-analysis of the deposited data

Results flagged for a closer look

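In 75 groups of 4 libraries, the values of the named members and the sums of the lists were searched for a library far from the other 3 of its group, and 6 were found. Chance alone gives about 1 in 20. Among the members Rsph9 reached 3.85 FPKM in CON 2 and 1.65 to 1.80 FPKM elsewhere in CON.

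The other 5 were sums of marker lists. Stroma markers summed to 2008 FPKM in VCD 3 and endothelial markers to 116 FPKM in the same library, the first above and the second below the other VCD libraries. Smooth muscle markers summed to 861 FPKM in VCD 4 and immune markers to 182 FPKM in VCD 1, both the highest of their group. Adipocyte markers summed to 251 FPKM in CON 1, far over the 28.4 to 45.9 FPKM of other controls, nearly all of it from Fabp4 at 249 FPKM.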

How the results depend on the processing

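The fit called 67 genes, and 1 member. The replicate block, with the shared number as a term, gave 31 genes and the same count of members, and Ccno kept its call. Leaving out 1 library gave 12 to 115 genes and 0 or 1 members, the 0 without CON 1 and without VCD 4. Without CON 1, limma gave 6 of 39 members and 2003 of 14978 genes an unadjusted p under 0.05. Without VCD 4 there were 6 members and 2054 genes at that level. The number of genes called was 12 if CON 1 was left out, 23 for CON 2, 22 for CON 3, 29 for VCD 2, 115 for VCD 3 and 13 for VCD 4. Further alternatives were chosen after seeing the data. Leaving out CON 1 and CON 2 gave 0 genes and 0 members. Leaving out VCD 2 and VCD 4, which had the highest ribosomal RNA sums, gave 7 genes and 0 members. In that last fit 6 members and 1730 genes had an unadjusted p under 0.05 by limma. Ccno had log2 changes of -1.48 without CON 1, -1.53 without VCD 4, -1.54 without CON 1 and CON 2 and -1.41 without VCD 2 and VCD 4, each short of the threshold. The cause was not tested. The median change over the members stayed below 0 in all alternatives, from -0.70 at a pseudocount of 0.1 FPKM to -0.16 without CON 1 and CON 2. It was -0.26 at a filter of 1 FPKM, where 24 members remained, -0.38 under median scaling and -0.31 under quantile normalization. Median scaling moved the median of all genes from -0.063 to 0.019 and quantile normalization to 0.0076, with 36 and 35 of 39 members lower in value. Of all tested genes 46.0% and 48.5% were lower in value there.

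The change of 7 of the 39 tested members turned in direction under at least 1 alternative. Cfap298 came to 0.0306 under median scaling, 0.00802 without VCD 2 and 0.0329 without VCD 2 and VCD 4, and ranged from -0.101 to 0.00802 when 1 library was left out. Dnaaf1 came to 0.0408 without CON 2, to 0.157 if VCD 1 was left out, to 0.00752 if VCD 4 was, and to 0.0152 without CON 1 and CON 2, and ranged from -0.571 to 0.157 when 1 library was left out. Dnaaf5 came to 0.0430 under median scaling and 0.0613 under quantile normalization, and Dnai1 to 0.0161 without CON 1 and CON 2. Cfap410 turned under both scalings and without CON 2, Cfap53 under quantile normalization and without CON 1 and CON 2, and Dnah7 under quantile normalization and without CON 2, without CON 1 and CON 2 or without VCD 2 and VCD 4, with values from 0.00644 to 0.0782 over these 3 genes. For the members listed by name in the methods, 330 changes kept direction and side of the threshold, 10 turned in direction and 4, all of Ccno, lost the call. Members other than Ccno were not called in the main fit, so they kept their side by staying uncalled. Size was not part of this count. Ccdc40 counted as kept at -0.545 with all libraries and -0.00201 without CON 1 and CON 2. The share of members highest in CON 2 was 82.1% of those tested, 84.6% under median scaling and 70.8% at 1 FPKM. Members with too low a mean for the filter, such as Mcidas and Ccdc39, have no value in these fits. Depth is unknown, and with 4 libraries a group a single one can end a call.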
